A study of Mus musculus with 2 samples.

Results

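mmu-miR-7a-5p, mmu-miR-34c-5p and mmu-miR-206-3p (mmu for mouse, left out hereafter) are 3 mature microRNAs (miRNAs) that are each known best from a few sites in the body rather than from the brain as a whole. They are 3 of the 69 miRNAs that could be named on these arrays, and their 73 probe sets are a small part of the 36249 probe sets in the deposited table. They were chosen by measured values. The study put them among the miRNAs that differed at least 1.5-fold between its arrays, and each was then found as the probe sets whose log2 difference and volume (the geometric mean of its log2 values on the 2 arrays) matched the study's row to within 0.0002. Their differences are therefore a description of these arrays, with no test.

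The data are 2 arrays of total RNA from brain of male C57BL/6 mice, 1 array for each condition. The CPZ array carries RNA of animals whose diet held 0.2% cuprizone (CPZ) for 6 weeks, and the control array carries RNA of animals kept on normal diet, which were matched in age per the methods. CPZ binds copper and, when fed to mice, kills the oligodendrocytes that make myelin, and neither labels nor methods name a genetic change in either group. The labels name cerebellum as the tissue while the methods name cerebrum, and the difference was not settled. It concerns these 3 miRNAs directly, since each is known from certain regions. How many mice gave RNA to each array is not given in the sources used here. In such bulk RNA, fewer cells of a type and less RNA per cell cannot be told apart, and with 1 array per condition no difference has an error or a p-value.

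A miRNA is carried by an Argonaute protein and pairs with mRNAs chiefly through its seed, bases 2 to 8 from the 5′ end, and the paired mRNAs then give less protein. miR-7 is an old animal miRNA that is abundant in neurosecretory cells, such as those of the pituitary, the hypothalamus and the pancreatic islet. In the brain it is bound by the circular RNA Cdr1as. miR-34c belongs to a family that p53 can induce and is known from testis, choroid plexus and the ciliated cells of airway and ventricle lining. miR-206 is a miRNA of skeletal muscle, where the factor MyoD drives it and where it helps repair of the neuromuscular junction in mice. In rodent brain it has been described from cerebellum.

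The mature sequences of miR-7a-5p and miR-206-3p show which RNA their probe sets are meant to read and which seed it carries. That of miR-34c-5p was not among the sequences used here. mRNAs and target sites were not examined. The sequences are from RefSeq (GRCm38.p6), 5′ to 3′, with the seed in capitals. miR-7a-5p is made from 2 loci, Mir7-2 (chr7:78888295-78888317, plus strand) and Mir7-1 (chr13:58392841-58392863, minus strand), and its close relative miR-7b-5p comes from Mir7b (chr17:56243017-56243040, plus strand). miR-206-3p comes from Mir206 (chr1:20679055-20679076, plus strand).
miR-7a-5p: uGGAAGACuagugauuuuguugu
miR-7b-5p: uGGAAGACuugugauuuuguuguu
miR-206-3p: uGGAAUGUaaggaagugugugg
The seeds of miR-7a-5p and miR-206-3p have their first 4 bases in common and then part. miR-7b-5p has the seed of miR-7a-5p, and over 23 positions it differs by 1 substitution, A10U (the miR-7a-5p base first, counted from 1 at the 5′ end), and is 1 base longer. No other miRNA among the 1679 mature sequences compared has that seed. Among the same sequences, the seed of miR-206-3p recurs in miR-6349 and miR-6382. miR-1a-3p and miR-1b-3p, the known muscle relatives of miR-206-3p, were not among the sequences compared.

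Relatives of miR-34c-5p are shown for the seed that binds the miR-34 and miR-449 families together, again in capitals. They come from Mir34b (chr9:51103610-51103632, minus strand), Mir34a (chr4:150068473-150068494, plus strand) and Mir449a (chr13:113037549-113037570, plus strand).
miR-34b-5p: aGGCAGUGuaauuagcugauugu
miR-34a-5p: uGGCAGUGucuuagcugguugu
miR-449a-5p: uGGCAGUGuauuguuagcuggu
Compared position by position without gaps, miR-34b-5p and miR-34a-5p differ at 11 of 22 positions although their seeds are identical. Their lengths differ by 1 base, and without gaps a shift of 1 base puts all later bases out of step. The count is therefore no measure of how alike they are beyond the seed. miR-449c-5p has the same seed as well. Mir34c and Mir34b are neighbours on chromosome 9, and both lie inside the spans of the protein-coding genes Hoatz and Btg4.

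The 2 precursors of miR-7a-5p are shown because the array value of miR-7a-5p cannot be divided between them. The mature miRNA, in capitals, is the same in both, while loop and opposite arm differ.
Mir7-1: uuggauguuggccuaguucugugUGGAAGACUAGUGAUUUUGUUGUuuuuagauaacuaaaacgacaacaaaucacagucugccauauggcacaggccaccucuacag
Mir7-2: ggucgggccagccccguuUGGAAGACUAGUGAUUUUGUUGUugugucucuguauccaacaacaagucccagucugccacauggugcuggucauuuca
The opposite arms, miR-7a-1-3p and miR-7a-2-3p, differ by A7G, A10C and U21C (the miR-7a-1-3p base first), so they could separate the loci, but their probe sets were not named here. By position, Mir7-1 lies within the span of Hnrnpk, the gene of a broadly expressed RNA-binding protein, and Mir7-2 lies between Det1 and Gm39039 with no gene over it. Mir206 lies within the span of the noncoding gene Lincmd1 and next to Mir133b, which encodes another miRNA of muscle. Whether these positions are exonic or intronic was not examined.

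The arrays stood far apart in miRNAs of epithelium. Of 10 epithelial miRNAs, listed after the values were seen, 6 were located. Of these, miR-200a-3p, miR-200b-3p, miR-200c-3p, miR-429-3p and miR-182-5p had RMA values, log2 signals after background correction and normalization, of 1.67 to 4.37 on the CPZ array and 6.65 to 9.99 on the control array, with differences from -6.28 to -4.97. The sixth, miR-203-3p, was higher on the CPZ array by 0.92. Only miRNAs of the study's tables, all at least 1.5-fold different, could be located, so the other 4 have no value here. The part of epithelial RNA in the differences of the 3 miRNAs was not tested.

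Few markers of the cells that CPZ is known to affect were located. A marker could be located only from the study's tables, whose miRNAs all differed at least 1.5-fold. That the located markers differ is thus fixed by that choice, and markers that did not differ cannot appear. Over all 36249 probe sets, 18.8% differed at least 1.5-fold in either direction. Of the 4 listed for oligodendrocytes, 2 were located and both were lower on the CPZ array, among them miR-219a-2-3p at 8.16 on the CPZ array and 9.66 on the control array. Of the 3 listed for microglia, 2 were located and both were higher, among them miR-146a-5p at 8.14 on the CPZ array and 6.70 on the control array. Their part in the differences of the 3 miRNAs was not tested either.

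miR-7a-5p, the miRNA of neurosecretory cells, was higher on the CPZ array. Its RMA value was 5.77 on the CPZ array and 4.36 on the control array, a difference of 1.41 on the log2 scale or 2.7-fold. As linear signals these are 54.6 on the CPZ array and 20.6 on the control array. Of the 39 located miRNAs that were higher on the CPZ array, counted by name, its difference ranked 8. Above it, miR-199a-3p and miR-199b-3p share 1 pair of values and thus count as 2 names. Among the 39, miR-466a-3p and miR-466e-3p also share a pair, and mir-665, mir-3069 and mir-466b-5 are precursors. miR-7a-5p was the only one of the 3 past 2-fold.

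miR-34c-5p, the miRNA of choroid plexus and ciliated cells, was also higher on the CPZ array. Its RMA value was 6.79 on the CPZ array and 5.85 on the control array, a difference of 0.94 on the log2 scale or 1.9-fold. The linear signals were 111 on the CPZ array and 57.6 on the control array. It ranked 17 of the same 39, again counted by name.

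miR-206-3p, the miRNA of muscle, differed in the opposite direction and was lower on the CPZ array. Its RMA value was 4.53 on the CPZ array and 5.49 on the control array, a difference of -0.97 on the log2 scale, 1.95-fold lower. The linear signals were 23.1 on the CPZ array and 45.1 on the control array. It ranked 13 of the 30 located miRNAs that were lower, among them the precursor mir-7017.

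**Figure D1:**
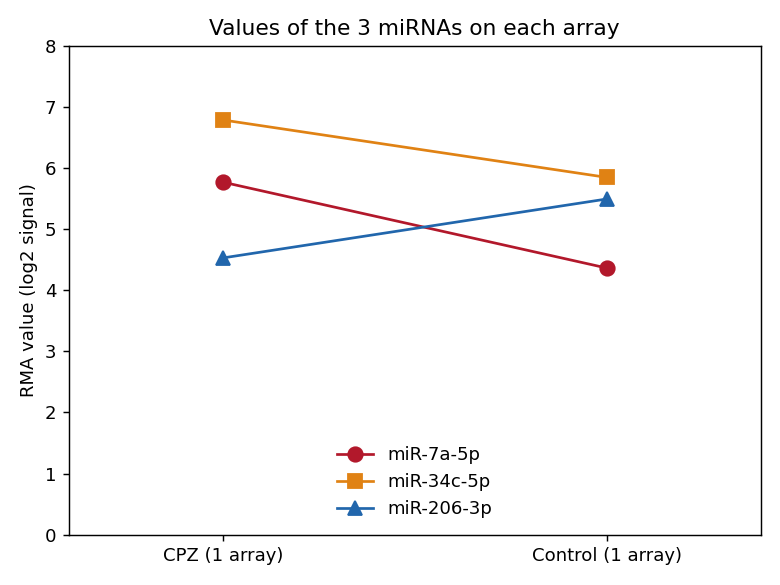
RMA values (log2 signal, y axis) of miR-7a-5p, miR-34c-5p and miR-206-3p on the CPZ array and on the control array, with 1 point per array and no error bars because each condition has 1 array. The CPZ point lies above the control point for miR-7a-5p and miR-34c-5p and below it for miR-206-3p, at 4.53 on the CPZ array and 5.49 on the control array.

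All 3 miRNAs thus lay past 1.5-fold, 2 of them higher and 1 lower on the CPZ array, which the way they were chosen fixes. Over all 36249 probe sets, 18.8% differed at least 1.5-fold in either direction. Many probe sets carry the same pair of values, and when each of the 6653 distinct pairs is counted once, 15.1% were at least 1.5-fold higher and 19.1% at least 1.5-fold lower on the CPZ array. The members' count cannot be read against these shares, since it comes from the contrast that selected them.

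The background share depends strongly on level. Among the 352 other distinct pairs with a mean RMA value within 0.5 of that of miR-7a-5p (5.07), 9.09% were at least 1.5-fold higher on the CPZ array. For miR-34c-5p, whose mean was 6.32, the share was 3.38% of 266 pairs. For miR-206-3p, whose mean was 5.01, 8.83% of 351 pairs were at least 1.5-fold lower. These shares describe the 2 arrays and are not a measure of noise, since they hold other miRNAs that may differ.

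In the same windows, 1 pair was higher by as much as miR-7a-5p and 1 by as much as miR-34c-5p, against 12 pairs lower by as much as miR-206-3p. Counted in either direction, 9 pairs differed by as much as miR-7a-5p, 7 by as much as miR-34c-5p and 20 by as much as miR-206-3p. As the 3 miRNAs were chosen by their differences, these counts are no test. The middle of each miRNA's window lay at or near no difference. Its median was 0.00 for miR-7a-5p, 0.02 for miR-34c-5p and 0.00 for miR-206-3p, and for miR-7a-5p 8 in 10 pairs lay between -0.52 and 0.54.

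**Figure D2:**
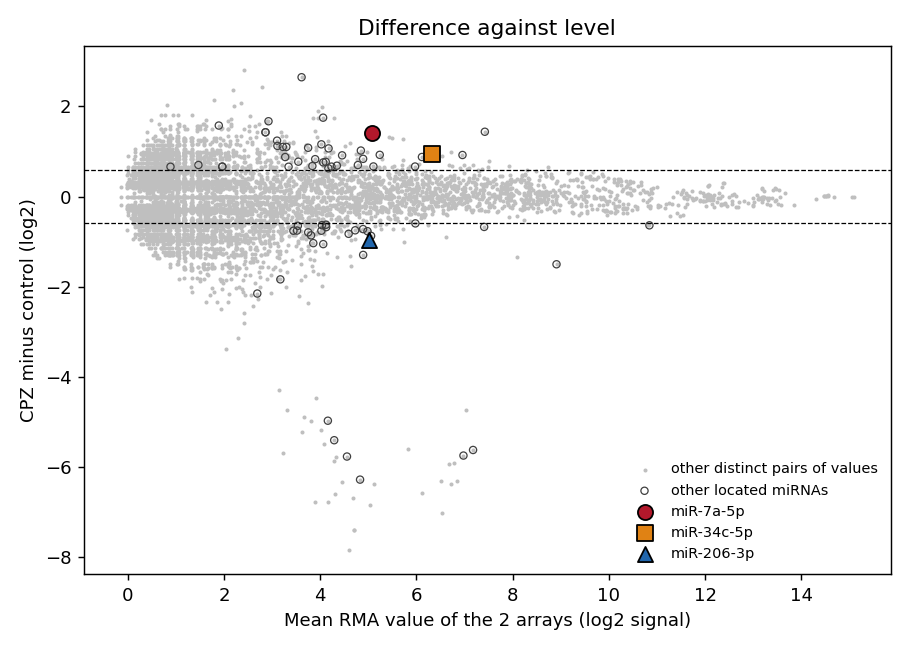
CPZ minus control (log2, y axis) against the mean RMA value of the 2 arrays (log2 signal, x axis) for every distinct pair of values (grey), the 66 other located miRNAs (open circles) and the 3 miRNAs (filled symbols). Dashed lines mark 1.5-fold, and the 3 filled symbols lie at 1.41, 0.94 and -0.97, with the first 2 above the upper dashed line and the third below the lower one.

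**Figure D3:**
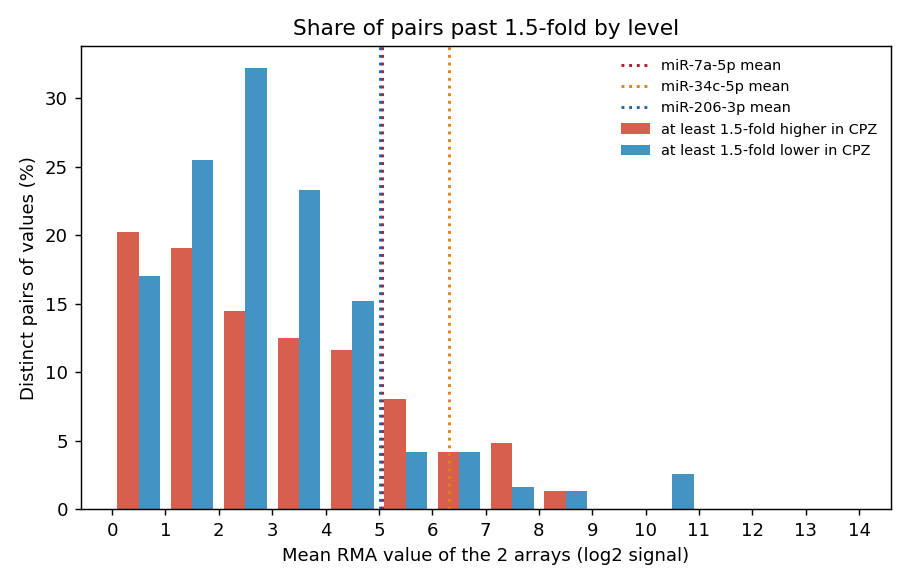
Share of distinct pairs of values (%, y axis) at least 1.5-fold higher (red) or lower (blue) on the CPZ array, in steps of 1 in the mean RMA value from 0 to 14 (log2 signal, x axis), with dotted lines at the means of the 3 miRNAs. The share of higher pairs was 11.6% for means of 4 to 5, 8.06% for 5 to 6 and 4.18% for 6 to 7, and that of lower pairs was 15.2%, 4.18% and 4.18% over the same steps, so that miR-206-3p, at 5.01, lies beside a step in the share of lower pairs.

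A feature that the choice of the 3 miRNAs did not use is the number of probe sets with identical values. The array holds probe sets for miRNAs of many organisms, and the pair of values of miR-7a-5p was carried by 41 probe sets, that of miR-34c-5p by 13 and that of miR-206-3p by 19. Most pairs of values are carried by few. Of the 6653 pairs, 3992 belonged to a single probe set and 495 to at least 13. Identical probe sets on an array are 1 measurement and were counted once in the distinct pairs, while ranks among the located miRNAs count names. Which organisms the probe sets were made for was not used here.

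Other pairs of values carried by many probe sets lay on both sides of no difference, with a median above it. Between mean RMA values of 4.51 and 6.82, the range around the 3 miRNAs, 28 other pairs were carried by 10 or more probe sets, of which 3 were at least 1.5-fold higher and 4 at least 1.5-fold lower on the CPZ array. Of the 4 lower pairs, 2 were the epithelial miR-200a-3p and miR-200b-3p. The highest of the 28 differences was 0.67 and the lowest -7.39. Their median was 0.225, against 0.106 for the pairs of 2 to 9 probe sets and 0.0 for those of 1 in the same range. None of the 28 was higher by as much as miR-7a-5p or miR-34c-5p, and 4 were lower by as much as miR-206-3p. The 3 miRNAs were chosen by this same difference and the 28 were not, so these counts are a description and no test. The limit of 10 probe sets was set after the values were seen.

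The located miRNAs with the most similar pair of values, by straight-line distance over the 2 arrays, differed between the 3. Nearest to miR-7a-5p was miR-203-3p, a miRNA of skin, at 5.70 on the CPZ array and 0.92 lower on the control array (distance 0.42). miR-1946b (distance 0.42) and miR-17-3p (distance 0.47) followed. Nearest to miR-34c-5p was miR-431-5p, a miRNA of the imprinted Dlk1-Dio3 locus, at 6.55 on the CPZ array and 5.68 on the control array (distance 0.29). miR-146b-5p (distance 0.53) and miR-20a-5p (distance 0.90) followed. Nearest to miR-206-3p was miR-7018-5p, at 4.62 on the CPZ array and 5.49 on the control array (distance 0.09). miR-484 (distance 0.15) and miR-669n (distance 0.24) followed. With 2 arrays this is a likeness of 2 numbers and nothing more.

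Sequence shared with other miRNAs was looked for in miR-7a-5p and miR-206-3p, since an array reads RNA by pairing. miR-34c-5p was left out because its mature form was not among the RefSeq sequences used here. Its likeness to miR-34b-5p and other relatives was therefore not examined. Outside its own seed family, miR-7a-5p has its longest common stretch with miR-338-3p (Mir338, chr11:120014781-120014802, minus strand), a miRNA of the oligodendrocyte lineage. The 13 shared bases are in capitals.
miR-7a-5p: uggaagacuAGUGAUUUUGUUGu
miR-338-3p: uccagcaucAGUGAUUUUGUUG
The probe set of miR-338-3p was not named here, and whether that RNA adds to the signal of miR-7a-5p was not tested. The opposite arm, miR-338-5p, was located and was lower on the CPZ array, at 7.07 on the CPZ array and 7.74 on the control array. The study's quantitative PCR did not find it lower. The longest common stretch with miR-7b-5p is also 13 bases, but miR-7b-5p is the closer match. It differs from miR-7a-5p by only 1 substitution over 23 positions, A10U, which interrupts the stretch.

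For miR-206-3p the longest such stretch, 11 bases, was with miR-3097-5p (Mir3097, chr5:35021050-35021072, plus strand), shown with the shared bases in capitals because that miRNA was located as well.
miR-206-3p: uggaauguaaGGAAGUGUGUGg
miR-3097-5p: cacaggugGGAAGUGUGUGucca
miR-3097-5p was lower on the CPZ array too, at 3.21 on the CPZ array and 3.86 on the control array. The 2 miRNAs have separate pairs of values, and whether their probe sets read separate RNAs was not tested.

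G and C made up 34.8% of miR-7a-5p and 45.5% of miR-206-3p, against a median of 52.2% over the 1679 mature sequences compared. miR-7a-5p lay near the low end, since 4.41% of those sequences held a smaller share of G and C than it, while 24.8% held a smaller share than miR-206-3p.

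Other members of the 3 families could not be followed. Of the 5 miRNAs listed for the miR-7 family, the 9 for the miR-34 and miR-449 families and the 6 for miR-206 with its muscle relatives, 1 each was located, namely the miRNA described here. Values of miR-7b-5p, of the other arm miR-34c-3p, of miR-34b and of miR-133b-3p, the cluster neighbour of miR-206, were not identified. Of the marker miRNAs listed for choroid plexus and ependyma (8), pituitary and hypothalamus (3) and skeletal muscle (6), 1 each was located, again the miRNA described here, and of the 3 listed for neurons none was. The labelled tissue could therefore not be checked against them.

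The size of the 3 differences depended on how dim signals were treated. The scalings between the arrays were small beside them, and an added constant cannot turn a sign, so the kept directions carry no further information. Normalizing the arrays again, centring on the median and a lowess fit left the difference of miR-7a-5p between 1.39 and 1.45, that of miR-34c-5p between 0.88 and 0.94 and that of miR-206-3p between -0.98 and -0.89. Adding 16 to both linear signals, which damps ratios of dim probe sets, gave 0.95 for miR-7a-5p, 0.78 for miR-34c-5p and -0.64 for miR-206-3p, all still past 1.5-fold (0.58 on the log2 scale). Adding 64, which is above both linear signals of miR-7a-5p and of miR-206-3p, left none of the 3 past 1.5-fold.

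**Figure D4:**
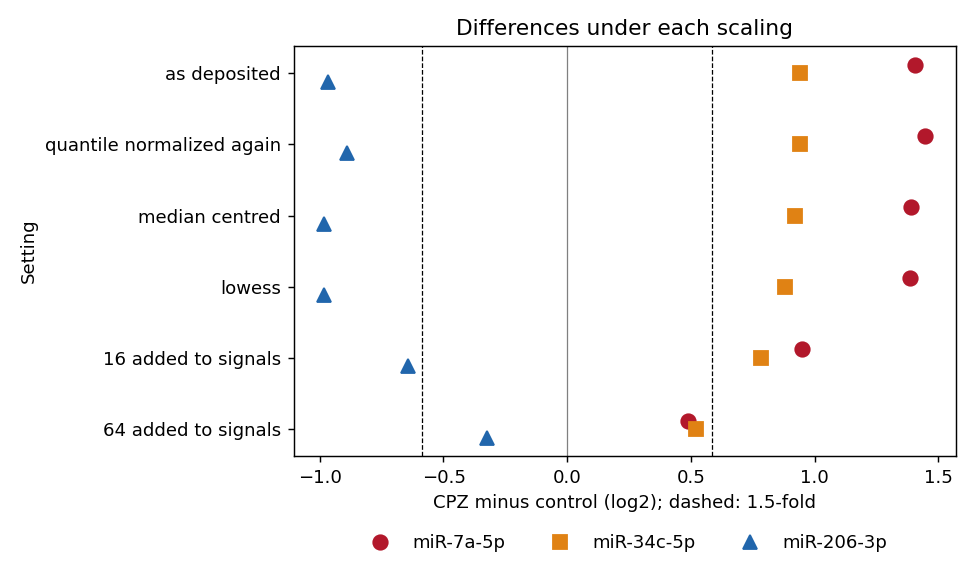
CPZ minus control (log2, x axis) of the 3 miRNAs under each scaling (y axis), with dashed lines at 1.5-fold. miR-7a-5p and miR-34c-5p lie to the right of 0 and miR-206-3p to the left in every row, and the values with 64 added, 0.49 for miR-7a-5p, 0.52 for miR-34c-5p and -0.32 for miR-206-3p, lie inside the dashed lines.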

How the data were processed

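Total RNA was hybridized to 2 Affymetrix miRNA 4.0 arrays, 1 CPZ and 1 control, grouped by their labels. The authors made the deposited log2 signals by RMA in Affymetrix Power Tools (versions not given in the sources used here), which normalizes both arrays together. They carry probe set numbers without miRNA names, and detection calls were not used here. From them, CPZ minus control, mean and volume were computed per probe set. The printed fold change and volume of the study's 2 tables served only to name probe sets, within 0.0002, and all 69 rows gave 1 pair of values each. The probe sets of the 3 miRNAs matched within 1.4e-06 or less, and the nearest other probe set lay 0.063 away.

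No p-value was computed. Background shares were taken over probe sets, over distinct pairs, and over distinct pairs with a mean within 0.5 of each miRNA. Named beside the 3 miRNAs are the 3 nearest located miRNAs of each and the listed relatives. Members and lists were chosen with earlier results of these data known. Of the marker lists for 6 cell types or tissues and 1 of epithelium, added after the values were seen, only miRNAs of the study's tables could be given values. Alternatives were 16 or 64 added to the signals, median centring (mean of at least 5), lowess (span 0.3), renewed quantile normalization, a 2-fold threshold, and tolerances of 0.0001 and 0.001. Sequences and gene positions are from RefSeq tables of GRCm38.p6, read by miRNA name, and 1 chromosome was left out of the sequence comparison. Functions were tested on simulated data. Python 3.11.15, numpy 2.4.6, pandas 2.3.3, statsmodels 0.14.6 and matplotlib 3.10.9 were used.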

Additional observations from a re-analysis of the deposited data

How the results depend on the processing

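With 1 array per condition the number of arrays limits every value, and no paired analysis was possible because each group has 1 sample. With 64 added to both linear signals, the differences of miR-7a-5p (0.49), miR-34c-5p (0.52) and miR-206-3p (-0.32) came under 1.5-fold. An added constant shrinks every ratio, the more so for dim signals. It is above both signals of miR-7a-5p and miR-206-3p, but for miR-34c-5p only above the control signal (57.6 against 111 on the CPZ array). At a threshold of 2-fold, miR-34c-5p (0.94) and miR-206-3p (-0.97) came under it, leaving 1 of the 3 miRNAs, miR-7a-5p. The background share of 18.8% was 34.2% over distinct pairs counted once, 6.53% over those with means of 5 or more, and 4.23% at 2-fold. Among the pairs of 10 or more probe sets near the 3 miRNAs' level, a choice made after seeing the data, it was 25.0%. In that same range of means it was 16.7% for pairs of 2 to 9 probe sets and 11.2% for pairs of 1. The other scalings changed no direction and no side of the threshold, and both other tolerances found the same number of probe sets, 73.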
